A study of Mus musculus with 16 samples.

Results

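Tumours grown from H295R cells under mitotane were set directly against those under 9-cis retinoic acid (9-cisRA): 4 arrays labelled mitotane and 4 labelled 9-cisRA, 8 of the 16 arrays of the series. They were chosen by treatment label alone. H295R is a human adrenocortical carcinoma line that makes steroids. Per the labels, SCID mice, which lack working T and B cells of their own, carried the tumours, all are given as male, and treatment was by mouth for 28 days. The design text counts 43 mice in 4 groups, the remaining groups being control and both agents together. The age and dose, and how many mice stand behind 1 array, are not given in the sources used here. The p-values therefore reflect only how far these samples spread, and that spread may be technical. Both groups here carried an agent and neither was untreated: a difference says which group was higher, not which agent moved the transcript.

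Mitotane is an adrenolytic drug that accumulates in the adrenal cortex, where it damages mitochondria, blocks steroid synthesis and inhibits SOAT1, the enzyme that stores cholesterol as esters. 9-cisRA is a ligand of the retinoic acid receptors (RARs) and of the retinoid X receptors (RXRs), which pair with RARs, LXRs, PPARs and other nuclear receptors on DNA. Ligand-bound RARs raise a small set of direct targets, among them the CYP26 enzymes that break retinoic acid down and RARB itself.

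The arrays were human 1-colour Agilent arrays, whereas the organism is listed as the mouse. Each probe carries an identifier, in most cases a human RefSeq accession, with no gene name beside it, and the reference tables supplied cover only mouse genes. The symbols below were therefore assigned from knowledge of human RefSeq accessions, were not checked against any table here, and are given with their accession. The files used here hold neither probe sequences nor positions, so none is given. The host has its own fibroblasts, vessels and phagocytes, and which species' RNA a human probe read was not tested. In whole tumours, fewer cells of a type and less RNA per cell cannot be told apart.

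Between 69.5% and 75.9% of probes were well above background on an array, and the 75th percentile of the intensity ran from 551.5 to 1061. The median correlation of an array with the other 7 was 0.978 to 0.987. Each of the 4 slides held 1 array of either group, but all 9-cisRA arrays lay at position 4 of their slide and no mitotane array did, so position and treatment cannot be told apart. Of 12 adrenocortical markers 11 were detected well above background on all 8 arrays. The steroid 11-beta-hydroxylase CYP11B1 (NM_000497) was so on 1 of 8. Single mitotane arrays lay apart from the rest of their treatment group in some gene lists, as described below. Among these were replicate 2 for fibroblast markers, replicate 3 for immediate early genes and replicate 4 for steroid synthesis.

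No transcript passed an adjusted p of 0.05 in limma among 20126 tested (0% called, lowest adjusted p = 0.285). At an unadjusted p under 0.05 there were 1723 transcripts, 8.56% of those tested, of which 1245 (6.19%) were higher and 478 (2.38%) lower under mitotane. The 2 groups did not overlap for 899 transcripts (4.47%), 607 higher (3.02%) and 292 lower (1.45%) under mitotane. On 4 of 4 slides the mitotane array was above its 9-cisRA neighbour for 2115 transcripts (10.5%) and below it for 1438 (7.14%). The median log2 difference, mitotane minus 9-cisRA, was 0.03 over all transcripts, and 55.9% of the differences were above 0.

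The excess of higher calls depended on how the arrays were scaled. The share of higher transcripts among those at unadjusted p under 0.05 was 72.3% on the deposited values. It was 80.6% on the scanner signal, 60.4% with normexp background correction and quantile normalisation (normexp below), 59.3% with each array centred on its median and 56.2% after quantile normalisation of the deposited values. Normexp here adds an offset of 50 to each signal, which by construction shrinks the log2 differences of dim probes most. The excess was larger among dimmer transcripts: in 4 bins of mean signal with equal numbers of transcripts (within 1), from dimmest to brightest, 469, 343, 254 and 179 were higher and 113, 112, 131 and 122 lower. Leaving out mitotane replicate 3 lowered the count to 965, with 742 higher and 223 lower.

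**Figure D1:**
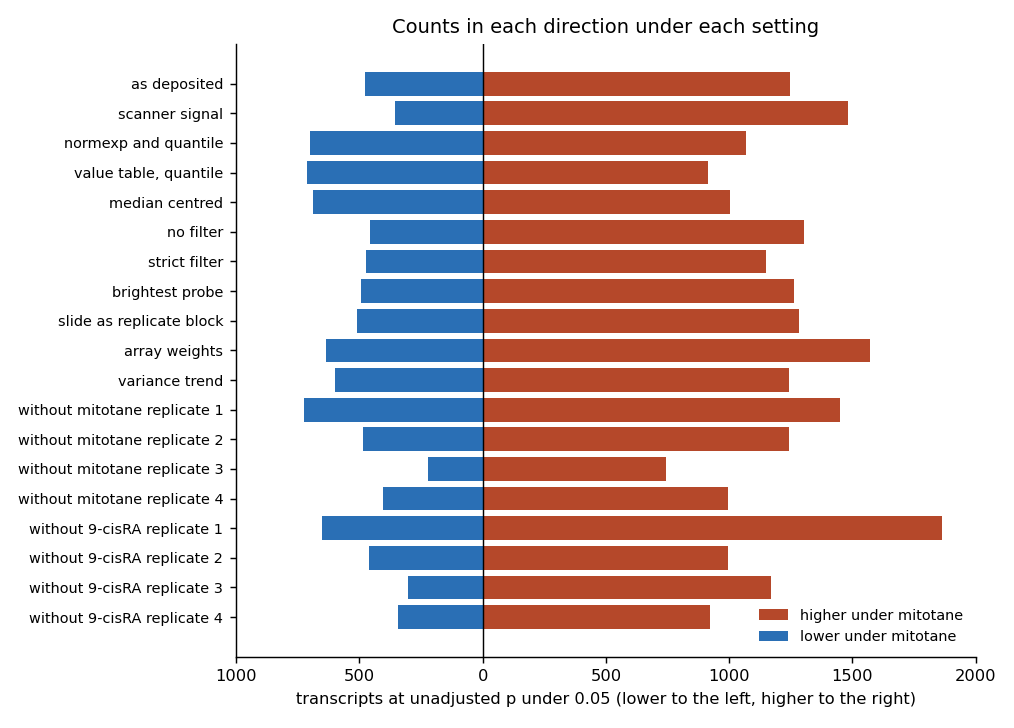
Number of transcripts at unadjusted p under 0.05 (horizontal axis, counts) under each setting (vertical axis), with those lower under mitotane drawn to the left in blue and those higher to the right in red. The deposited values gave 1245 higher and 478 lower, quantile normalisation 913 and 713, and leaving out mitotane replicate 3 gave 742 and 223.

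Among transcripts higher under mitotane with the smallest p, the most uniform was PER2 (NM_022817), the period gene that represses its own transcription in the circadian clock. PER2 was at 0.50, 0.58, 0.52 and 0.56 on the mitotane arrays and at 0.14, -0.14, -0.08 and -0.12 on the 9-cisRA arrays. These are log2 values centred on the probe's median over the 16 arrays. The groups did not overlap and the 4 mitotane values lay close together. The means were 0.54 ± 0.04 and -0.05 ± 0.13 (SD, n = 4 each), a log2 difference of 0.59 ± 0.10 (SE), or 1.51-fold, with adjusted p = 0.553 in limma. Its 2 probes differed by 0.54 and 0.65, and normexp gave 0.16.

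Among other clock genes, PER3 (NM_016831), a second period gene, was at 0.64, 0.46, 0.45 and 0.47 under mitotane and at 0.37, 0.17, -0.21 and -0.16 under 9-cisRA. Its groups did not overlap, and the log2 difference was 0.46 ± 0.14 (SE), or 0.05 with normexp. CRY1 (NM_004075), the cryptochrome that forms the repressor complex with PER proteins, was at 0.21, 0.54, 0.33 and 0.38 under mitotane and at -0.59, 0.32, -0.57 and -0.21 under 9-cisRA. 9-cisRA replicate 2 lay within the mitotane range, and the log2 difference was 0.63 ± 0.20 (SE), or 0.28 with normexp. CRY2 (NM_021117) differed by 0.30 ± 0.12 and the PAR-domain factor TEF (NM_003216) by 0.35 ± 0.14. Of the 20 clock genes tested, 5 were higher and 0 lower at unadjusted p under 0.05, against 6.19% and 2.38% of all transcripts. The 12 differences above 0 made 60%, against 55.9% of all transcripts, and the median was 0.22 against 0.03. The median was 0.04 with normexp and 0.12 without mitotane replicate 3. The activating arm did not share this: ARNTL (NM_001030273) differed by -0.17, CLOCK (NM_004898) by -0.08 and NPAS2 (NM_002518) by -0.32, and the repressor NR1D1 (NM_021724) by -0.28, none at unadjusted p under 0.05. The hour at which each tumour was taken is not stated in the labels.

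**Figure D2:**
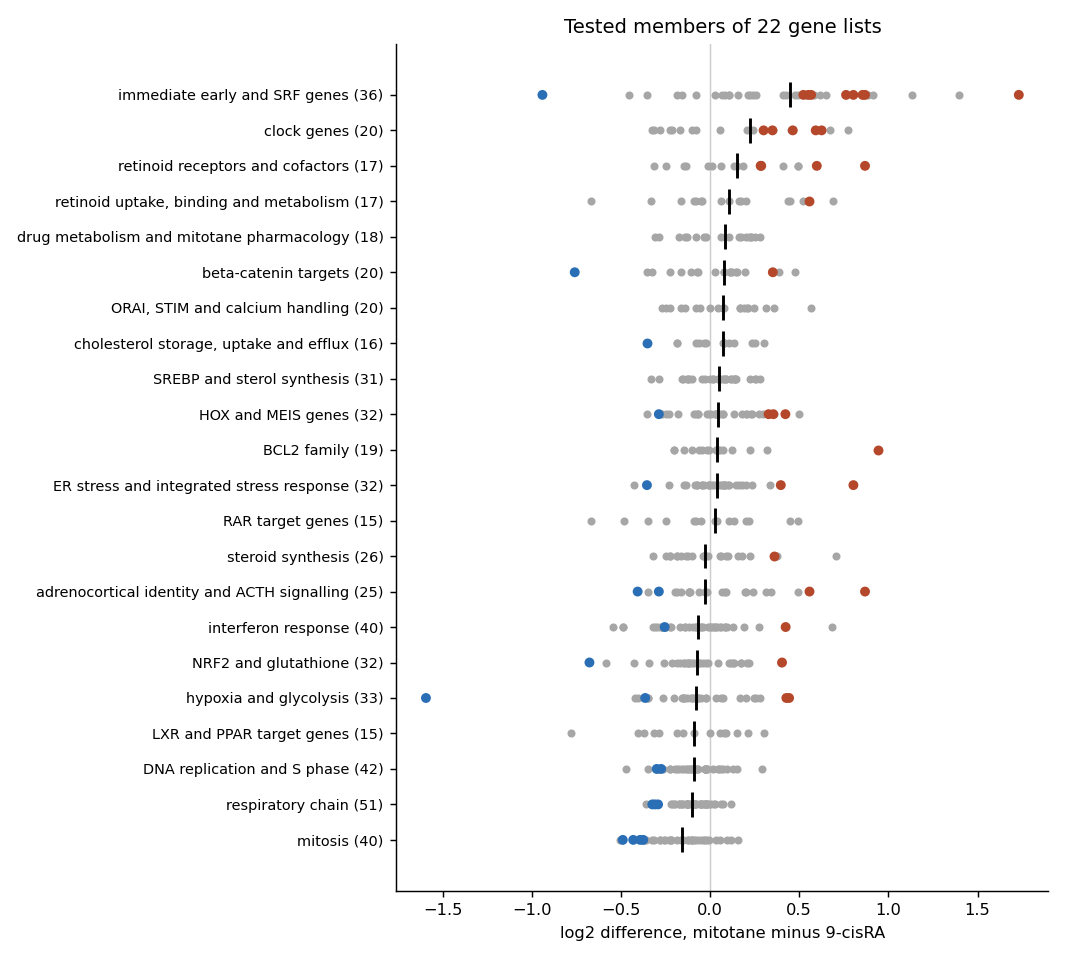
Log2 difference, mitotane minus 9-cisRA (horizontal axis), of every tested member of 22 gene lists (vertical axis, number tested in brackets). Each dot is a gene, coloured at unadjusted p under 0.05 (red higher, blue lower under mitotane), and the black bar is the list's median, which ran from -0.16 for mitosis to 0.45 for immediate early and SRF genes.

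Of the 22 gene lists, the one with the largest median difference was that of immediate early genes and targets of SRF, transcription factors and their regulators that cells switch on within minutes of growth factor or stress signals. Of 36 tested members, 8 were higher and 1 was lower under mitotane at unadjusted p under 0.05, and 30 differences were above 0, with a median of 0.45. Over all transcripts 6.19% were higher and 2.38% lower at that threshold, and 55.9% of differences were above 0. FOSB (NM_006732), a subunit of AP-1, was at 1.15, 0.48, 3.17 and 0.00 on the mitotane arrays and at -0.29, -1.33, -0.34 and -0.17 on the 9-cisRA arrays. Its groups did not overlap, but mitotane replicate 3 stood far above the rest. The log2 difference was 1.73 ± 0.60 (SE), or 3.32-fold (adjusted p = 0.553, limma), 1.08 without mitotane replicate 3 and 0.72 with normexp.

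The orphan nuclear receptor NR4A1 (NM_002135), which in adrenal cells responds to ACTH, was at 0.10, -0.04, 1.53 and -0.30 under mitotane and at -0.47, -0.36, -0.74 and -0.62 under 9-cisRA. Again the groups did not overlap and mitotane replicate 3 was the highest. The log2 difference was 0.87 ± 0.34 (SE), 0.47 without mitotane replicate 3 and 0.30 with normexp. FOS (NM_005252), the partner of JUN in AP-1, was at 0.53, -0.37, 2.28 and -0.53 under mitotane and at -0.70, -0.80, -0.06 and -0.18 under 9-cisRA. The FOS groups overlapped, and the log2 difference was 0.91 ± 0.54 (SE), or 0.31 without mitotane replicate 3. EGR1 (NM_001964), a zinc-finger immediate early factor, was at 0.68, -0.01, 2.15 and -0.62 under mitotane and at -0.52, -1.31, -0.52 and 0.01 under 9-cisRA, and its groups overlapped as well. The other members at unadjusted p under 0.05 were JUN (0.57 ± 0.20), JUND (0.55), FOSL2 (0.86), ATF3 (0.80 ± 0.33), IER2 (0.52) and DUSP5 (0.76).

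Mitotane replicate 3 was the highest of the 8 arrays for 27 of the 36 members. The mean over its 36 members was 1.06 on that array, 0.16, 0.06 and -0.25 on the other mitotane arrays and -0.14, -0.35, -0.01 and -0.08 on the 9-cisRA arrays. Without that array the median was 0.14, with 4 higher and 0 lower at unadjusted p under 0.05 and 25 of 36 differences above 0. The number higher was 3 with normexp and 14 without mitotane replicate 4. The list's 1 lower member, ACTA2 (NM_001613), is smooth muscle actin and is also a fibroblast marker.

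**Figure D3:**
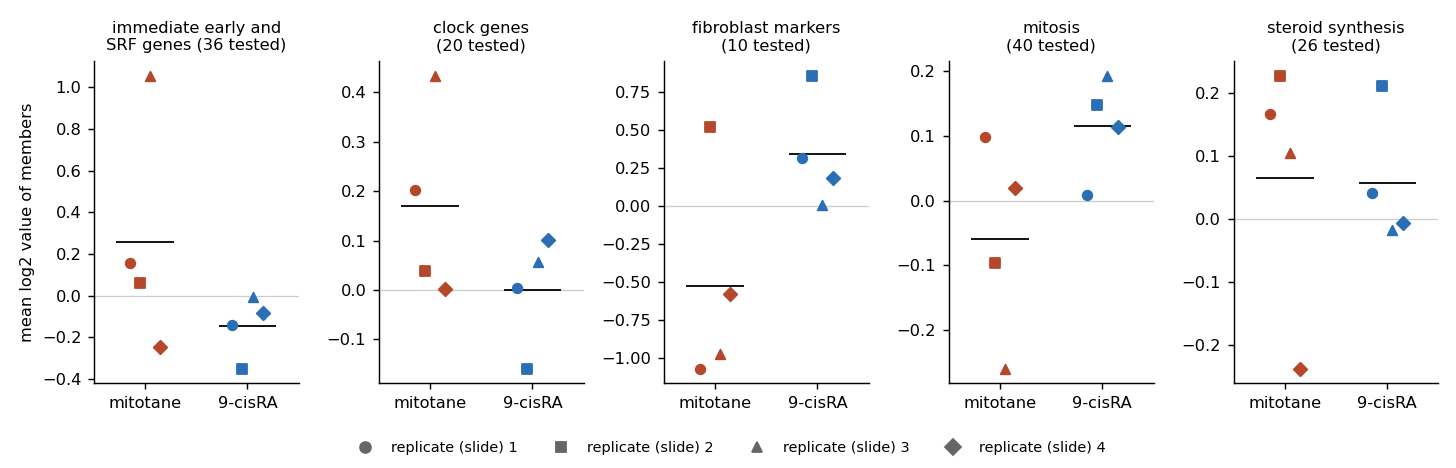
Mean log2 value over the tested members of 5 lists (vertical axis) on each of the 8 arrays, by group (horizontal axis), with the replicate number, which is the slide, given by the symbol and the group mean by the black line. Mitotane replicate 3 (triangle) reached 1.06 in the immediate early list, and mitotane replicate 2 (square) stood at 0.52 in the fibroblast list while the other mitotane arrays lay between -1.07 and -0.58.

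Of 13 tested heat shock genes, in a list drawn up after the values were seen, 3 were higher under mitotane and 0 lower at unadjusted p under 0.05, with a median of 0.15. Over all transcripts 6.19% were higher and 2.38% lower at that threshold. The number of heat shock genes higher ran from 2, with normexp among others, to 4. HSP90AA1 (NM_005348), the inducible HSP90, was at 0.01, 0.24, 1.06 and 0.53 under mitotane and at -0.23, -0.37, -0.62 and -0.53 under 9-cisRA. The groups did not overlap, and the log2 difference was 0.90 ± 0.21 (SE), or 1.87-fold (adjusted p = 0.553, limma), and 0.70 without mitotane replicate 3. HSPH1 (NM_006644), a nucleotide exchange factor for HSP70, was at 0.09, 0.59, 1.01 and 0.58 under mitotane and at -0.22, -0.02, -0.07 and -0.05 under 9-cisRA, with a log2 difference of 0.66 ± 0.18 (SE). Here too mitotane replicate 3 was the highest array. HSPA1A and HSPA1B, near-identical genes that probes may not separate, differed by 0.99 and 0.70. The mitochondrial chaperones HSPD1 (0.01) and HSPE1 (-0.07) and the constitutive HSP90AB1 (0.05) differed little.

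Genes of fibroblasts and matrix lay lower on 3 of the 4 mitotane arrays. COL1A1 (NM_000088), a chain of type I collagen, was at -2.58, 0.91, -2.13 and -1.42 under mitotane and at 0.30, 1.70, -0.30 and 0.34 under 9-cisRA. Those 3 mitotane values lay below every 9-cisRA value, and mitotane replicate 2 lay among the 9-cisRA values. The log2 difference was -1.81 ± 0.70 (SE), a 3.52-fold lower mean under mitotane (adjusted p = 0.567, limma), and -2.55 without mitotane replicate 2. COL1A2 (NM_000089), the other chain of that collagen, was at -2.36, 0.83, -1.92 and -1.18 under mitotane and at 0.40, 1.63, -0.03 and 0.03 under 9-cisRA. PDGFRA (NM_006206), a growth factor receptor of fibroblasts, was at -1.62, 0.88, -2.10 and -0.59 against 0.73, 1.59, 0.24 and 0.76. Its log2 difference was -1.69 ± 0.57 (SE), or -0.91 with normexp. For each of these 3 genes mitotane replicate 2 lay among the 9-cisRA values, but on 4 of 4 slides the mitotane array was below its 9-cisRA neighbour. That held for 7.14% of all transcripts, and slides were not taken to pair the samples.

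Of 14 fibroblast markers 10 were tested: 0 were higher and 5 lower under mitotane at unadjusted p under 0.05 (COL1A1, COL1A2, PDGFRA, ACTA2 and COL5A1), 8 differences were below 0, and the median was -0.89. Over all transcripts 2.38% were lower at that threshold and 44.1% of differences were below 0. The number of markers lower was 2 without mitotane replicate 3 or 4 and 3 without mitotane replicate 1 or 9-cisRA replicate 2. It was 7 without mitotane replicate 2, and 7 with slide as a block. Their mean was -1.07, 0.52, -0.98 and -0.58 on the mitotane arrays and 0.32, 0.86, 0.01 and 0.18 on the 9-cisRA arrays. Slide 2 held the highest array of either group. Other fibroblast genes were not well above background on any array: COL6A3, LUM and POSTN. FAP differed by 0.00 and FBLN1 by 0.20. Endothelial markers (7 of 11 on the array tested, median 0.08), macrophage markers (4 of 9, 0.05) and lymphocyte markers (9 of 10, 0.07) gave 1 transcript at unadjusted p under 0.05, CSF1R (NM_005211), at -0.33. The part that fibroblast content has in the results was not tested.

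Leaving out mitotane replicate 2 gave the only calls of any setting run: 4 transcripts passed the adjusted threshold in limma, all lower under mitotane. NM_001850, the collagen gene COL8A1, had a log2 difference of -2.73 (adjusted p = 0.0128), and was at -1.52, 0.58, -1.96 and -1.96 under mitotane and at 0.89, 1.45, 0.83 and 0.48 under 9-cisRA. NM_022144, the tendon gene TNMD, was not well above background on the 3 mitotane arrays then left and was at least 2.12-fold lower on them than under 9-cisRA (adjusted p = 0.0128). The same held for NM_080838, at least 3.77-fold lower (adjusted p = 0.022). Both bounds are measured from the lowest signal well above background. On the array left out, both transcripts were well above background and higher than on any 9-cisRA array. There TNMD was at 2.36, against 1.12 to 1.96 under 9-cisRA, and NM_080838 at 0.80, against -0.05 to 0.78. The last was NM_152414, at -2.67 (adjusted p = 0.022), measured on every mitotane array. With all 8 arrays the differences of COL8A1 and NM_152414 were -2.13 and -2.01.

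Some matrix and junction genes kept the groups apart with all 8 arrays. CDH11 (NM_001797), a cadherin of mesenchymal cells, was at -0.28, 0.02, -0.31 and -0.25 under mitotane and at 0.41, 0.34, 0.64 and 0.24 under 9-cisRA. The log2 difference was -0.61 ± 0.13 (SE), 1.53-fold lower under mitotane (adjusted p = 0.553, limma). SULF1 (NM_015170), a sulfatase that trims heparan sulfate, was at -0.33, -0.21, -0.67 and -0.67 against -0.01, 0.14, -0.13 and 0.13, a log2 difference of -0.50 ± 0.14 (SE). GJA1 (NM_000165), the gap junction protein connexin 43, was at -0.13, -0.03, -0.16 and -0.30 against 0.14, 0.67, 0.40 and 0.50, a log2 difference of -0.58 ± 0.13 (SE). FST (NM_013409), follistatin, which binds activin, was at -0.29, 0.14, -0.01 and -0.31 against 0.62, 0.53, 0.23 and 0.49, a log2 difference of -0.58 ± 0.14 (SE), or -0.16 with normexp. None of the 4 overlapped between groups. Of 16 matrix genes tested, in a list drawn up after the values were seen, 6 were lower at unadjusted p under 0.05 and 16 differences were below 0. Over all transcripts these shares were 2.38% and 44.1%. The counts of this list were partly fixed by choosing it after the values were seen. It shares COL1A1 with the fibroblast markers, so its counts and theirs are not independent of each other.

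**Figure D4:**
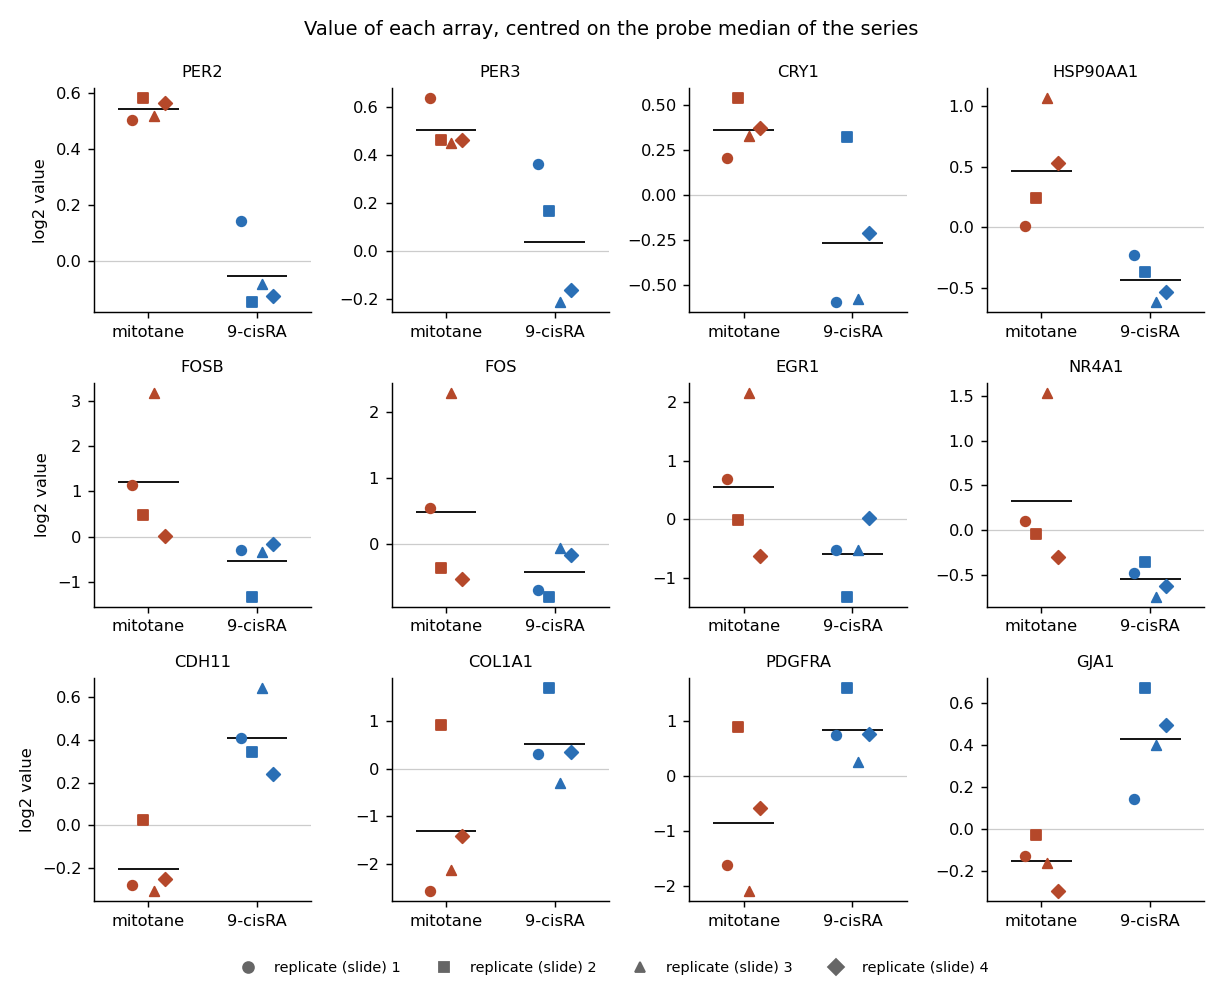
Log2 value (vertical axis, centred on the probe's median over the series) of 12 genes on each of the 8 arrays, by group (horizontal axis), with the replicate number given by the symbol and the group mean by the black line. PER2 is tight under mitotane (0.50 to 0.58), FOSB, FOS, EGR1 and NR4A1 are highest in mitotane replicate 3, and COL1A1 and PDGFRA in mitotane replicate 2 (0.91 and 0.88) lie among the 9-cisRA values.

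Small proline-rich proteins, which are cross-linked into the envelope of keratinised cells, were lower under mitotane for 3 of 7 genes tested and higher for 0 at unadjusted p under 0.05, again in a list drawn up after the values were seen. The other 4 included 2 with differences above 0. Over all transcripts 2.38% were lower and 6.19% higher at that threshold. The list's median was -0.33, but -0.059 with normexp and -0.0090 with the brightest probe of each gene. SPRR2E (NM_001024209) was at -0.53, -0.13, -0.77 and -0.47 under mitotane and at 0.06, 0.71, 0.74 and 0.06 under 9-cisRA, a log2 difference of -0.87 ± 0.20 (SE), or -0.32 with normexp. SPRR2A (NM_005988) was at -1.0, 0.21, -0.80 and 0.04 against 0.43, 1.43, 2.27 and 0.31, a log2 difference of -1.50 ± 0.45 (SE), or -0.15 with normexp. Both kept the groups apart, with 9-cisRA replicate 3 highest. That array was the highest of the 8 for 6 of the 7 genes tested. The mean of the 7 genes was 0.85 on it and 0.01, 0.29 and 0.07 on the other 9-cisRA arrays. Without it the list's median was -0.15, with 3 lower and 1 higher at unadjusted p under 0.05 and 3 differences above 0. SPRR2 genes are near-identical copies, so the member that a probe reads is uncertain. Of the keratinocyte keratins KRT5, KRT14, KRT1 and KRT6A, none was well above background on any array. The 2 tested of 8 keratinocyte markers lay the other way, at 0.007 and 0.20, with 0 at unadjusted p under 0.05. The serpin SERPINB5 (NM_002639), an epithelial protein, was at 0.08, -0.59, -0.77 and -0.40 under mitotane, where only 2 of 4 arrays were well above background, and at 0.71, 1.21, 2.68 and 0.90 under 9-cisRA. It was measured on all 4 arrays only under 9-cisRA, so the size of its log2 difference, -1.79 ± 0.39 (SE), or -0.21 with normexp, rests partly on background.

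The remaining leading transcripts were of mixed kinds. LMOD1 (NM_012134), an actin nucleator of smooth muscle, had the smallest p of those named: it was at 0.74, 0.67, 0.56 and 0.25 under mitotane and at -0.22, -0.64, -0.64 and -0.48 under 9-cisRA. The log2 difference was 1.05 ± 0.15 (SE), or 2.08-fold (adjusted p = 0.285, limma), and 0.12 with normexp. IGF2BP2 (NM_006548), which binds IGF2 mRNA, was at 0.02, 0.07, 0.53 and 0.38 against -0.48, -1.26, -1.21 and -0.76, a log2 difference of 1.18 ± 0.20 (SE), or 0.06 with normexp. RELB (NM_006509), a subunit of non-canonical NF-kappaB, was at 0.25, 0.48, 0.60 and 0.19 against -0.01, -0.51, -0.37 and -0.29, a log2 difference of 0.68 ± 0.14 (SE) that was 0.65 with normexp. The tissue kallikrein KLK1 (NM_002257) was at -0.11, -0.13, -0.05 and -0.28 against 0.46, 0.14, 0.63 and 0.43, a log2 difference of -0.56 ± 0.13 (SE), or -0.49 with normexp. With normexp LMOD1 and IGF2BP2 thus kept little of their difference and RELB and KLK1 most of it. How much of such shrinking comes from the normexp offset was not tested.

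Others named by the rule, which takes up to 12 transcripts in each direction, were OTX1 (0.75), RRBP1 (0.56), CHMP4B (0.50), NR6A1 (0.55), TSPAN5 (0.59), MAML3 (0.45) and NKX6-1 (1.21), all higher under mitotane. Those lower were PDE4B (-0.46), ZSCAN5A (-0.56), TPM1 (-0.75), ROR1 (-0.48) and STC1 (-0.74). Each had adjusted p = 0.553 in limma. Under normexp NKX6-1 was at 0.11, NR6A1 at 0.05, TPM1 at -0.21 and STC1 at -0.06. NKX6-1 was well above background on 2 of 4 9-cisRA arrays and STC1 on 2 of 4 mitotane arrays. Whatever the name, the smallest p among higher transcripts were those of NR_026682 (log2 difference 1.21 ± 0.16) and NM_012134, and among lower ones those of NM_153225 and NM_001797. NM_153225 was not well above background on any mitotane array and was at least 2.22-fold higher under 9-cisRA (adjusted p = 0.553, limma), measured from the lowest signal well above background.

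**Figure D5:**
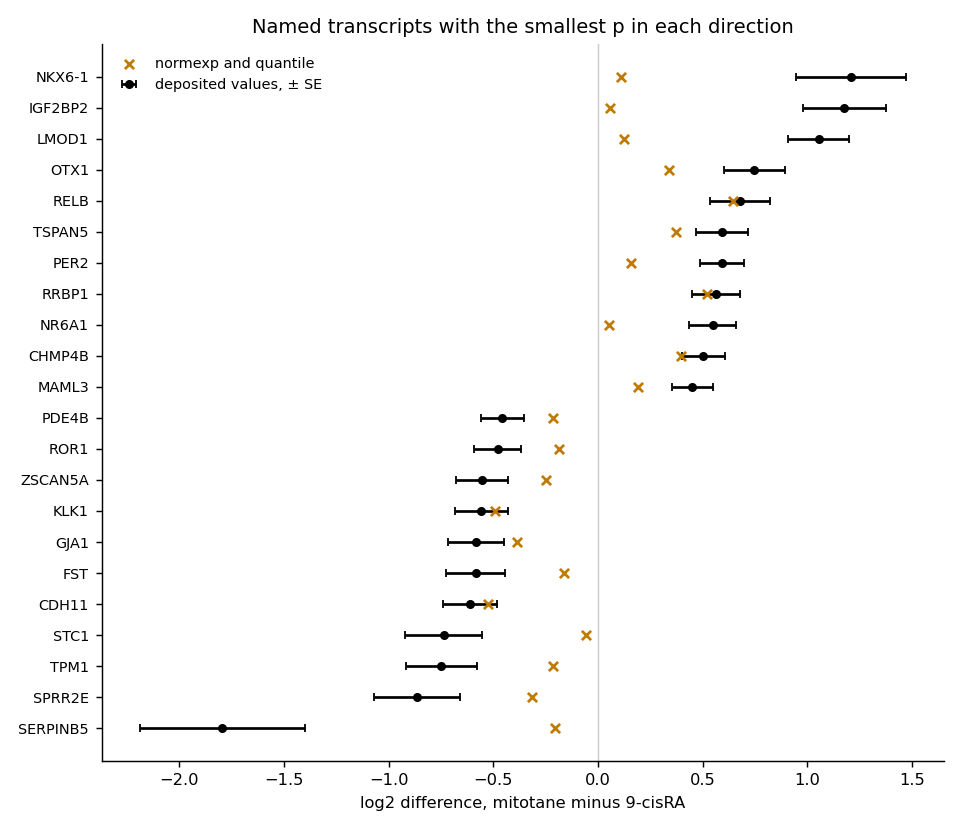
Log2 difference, mitotane minus 9-cisRA (horizontal axis), of 22 named transcripts with the smallest p in each direction (vertical axis), as black points with SE bars (4 arrays a group), and the same difference with normexp and quantile normalisation as crosses. RELB (0.68 and 0.65) and KLK1 (-0.56 and -0.49) hardly move, whereas IGF2BP2 goes from 1.18 to 0.06.

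The direct targets of RARs showed no common direction. Of 15 tested RAR target genes, 0 were higher and 0 lower at unadjusted p under 0.05, 8 differences were above 0, and the median was 0.03, as over all transcripts. Of all transcripts 6.19% were higher and 2.38% lower at that threshold, and 55.9% of differences were above 0, so a list of 15 would hold few calls in any case. With slide as a block 1 was higher and 2 were lower, and after quantile normalisation 0 and 2. CYP26A1 (NM_057157), the retinoic acid hydroxylase, was at -0.08, 0.05, 0.15 and -0.44 under mitotane and at 0.39, -0.32, -0.03 and -0.15 under 9-cisRA. The log2 difference was -0.05, with a 95% interval from -0.46 to 0.35. RARB (NM_000965), the receptor that is its own target, was at 0.50, -0.42, 0.09 and 0.59 under mitotane and at -0.90, -0.12, -0.27 and 0.08 under 9-cisRA. Its difference was 0.49 (interval -0.10 to 1.08), and that of CYP26B1 (NM_019885) was 0.45 (-0.05 to 0.95). Differences in the list ran from -0.67 to 0.49. For both RARB and CYP26B1 the groups overlapped. CRABP2 (NM_001878), which brings retinoic acid to RARs, differed by 0.11 (-0.29 to 0.50), and TGM2 (NM_004613), a transglutaminase, by 0.03 (-0.30 to 0.36). DHRS3 (NM_004753), a retinal reductase, was well above background on 2 mitotane arrays and 1 9-cisRA array and was not tested.

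Among 17 tested retinoid receptors, partner receptors and cofactors, 4 were higher under mitotane and 0 lower at unadjusted p under 0.05, with a median of 0.15 (0.04 with normexp). Over all transcripts 6.19% were higher and 2.38% lower at that threshold. The number higher in this list was 0 without 9-cisRA replicate 4. It was 1 without mitotane replicate 3 or 9-cisRA replicate 3, and likewise with median centring or quantile normalisation, and 2 with normexp, without mitotane replicate 1 or without the filter on dim probes. The 4 were NR4A1, described above, the corepressor NCOR1 (NM_006311; 0.28), the coactivator NCOA2 (NM_006540; 0.60, or 0.04 at its lowest over the alternatives) and RXRA (NM_002957), a receptor that 9-cisRA binds. RXRA was at -0.02, 0.28, 0.27 and 0.17 under mitotane and at 0.08, -0.25, 0.02 and -0.28 under 9-cisRA, and its difference of 0.29 ± 0.13 (SE) was the least certain of the 4 by limma's unadjusted p. RARA (NM_001024809) differed by 0.01 (-0.24 to 0.26), and RXRG (NM_006917) was not well above background on any array. Of 17 tested genes of retinoid uptake, binding and metabolism, 1 was higher and 0 lower: BCO2 (NM_031938), which cleaves carotenoids, at 0.56 ± 0.15 (SE). The partner-receptor targets of LXRs and PPARs gave 0 of 15 in either direction, with a median of -0.09. ABCA1 (NM_005502), the cholesterol exporter, differed by -0.19 (-0.53 to 0.16), PDK4 (NM_002612), a kinase that spares glucose, by -0.32 (-0.97 to 0.34) and ANGPTL4 (NM_139314), a lipase inhibitor, by -0.40 (-1.60 to 0.79).

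Steroid synthesis, which mitotane is known to block, did not separate the groups. Of 26 tested genes 1 was higher under mitotane and 0 lower at unadjusted p under 0.05, with a median of -0.03 and 10 differences above 0. Over all transcripts 6.19% were higher and 2.38% lower at that threshold, and 55.9% of differences were above 0. Without mitotane replicate 4 the median was 0.08, with 3 higher and 17 differences above 0. STAR (NM_000349), which carries cholesterol into mitochondria, was at 0.24, 0.27, 0.34 and -0.47 under mitotane and at -0.21, 0.34, -0.01 and -0.11 under 9-cisRA, a log2 difference of 0.09 (-0.36 to 0.53). CYP11B2 (NM_000498), aldosterone synthase, was at 0.81, 1.05, 1.07 and -0.94 against 0.00, 0.80, -1.28 and -0.35, a difference of 0.71 (-0.46 to 1.87), and probes may not separate it from CYP11B1. Mitotane replicate 4 was the lowest mitotane array for both genes, and for the mean of the list, at -0.24 against 0.11 to 0.23 on the other mitotane arrays. The side-chain cleavage enzyme CYP11A1 (NM_000781) differed by 0.06 (-0.32 to 0.43), the 17-hydroxylase CYP17A1 (NM_000102) by -0.23 (-0.62 to 0.16) and HSD3B2 (NM_000198) by -0.23 (-1.03 to 0.58). CYP21A2 (NM_000500), which has a near-identical pseudogene, differed by -0.01 (-0.48 to 0.45) and the sulfotransferase SULT2A1 (NM_003167) by -0.03 (-0.38 to 0.32). The 1 gene at unadjusted p under 0.05 was HSD17B12 (NM_016142), at 0.36, whose 2 probes gave 0.11 and 0.61.

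Of the regulators of the adrenal cortex, NR5A1 (NM_004959), the factor that drives steroid genes, differed by -0.02 (-0.38 to 0.35), its antagonist NR0B1 (NM_000475) by -0.12 (-0.51 to 0.28) and the ACTH receptor MC2R (NM_000529) by 0.24 (-0.50 to 0.98). In the list of adrenocortical identity and ACTH signalling, 2 of 25 were higher (NR4A1 and the orphan receptor NR2F1, NM_005654, at 0.56 ± 0.16) and 2 lower, among them the H19 RNA (NR_002196), at -0.41. Over all transcripts these shares were 6.19% and 2.38%.

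The lists tied to mitotane's known actions gave few transcripts at unadjusted p under 0.05, where 6.19% of all transcripts were higher and 2.38% lower. For cholesterol storage, uptake and efflux the count was 0 higher and 1 lower of 16, and SOAT1 (NM_003101), the drug's target, differed by -0.03 (-0.29 to 0.22). For SREBP and sterol synthesis it was 0 of 31, and INSIG1 (NM_005542), which holds back SREBP activation, differed by 0.06 (-0.40 to 0.51). For the ER stress and integrated stress response it was 2 higher and 1 lower of 32. The higher ones were ATF3, counted above, and the stress sensor ERN1 (NM_001433; 0.40 ± 0.11, or 0.07 with normexp). DDIT3 (NM_004083), the factor CHOP, differed by 0.24 (-0.13 to 0.61), TRIB3 (NM_021158) by -0.01 (-0.38 to 0.37) and CHAC1 (NM_024111) by 0.34 (-0.28 to 0.95). For drug metabolism it was 0 of 18, and the CAR target CYP2B6 (NM_000767) differed by 0.23 (-0.09 to 0.55) and the efflux pump ABCB1 (NM_000927) by 0.28 (-0.05 to 0.61). Of 19 BCL2 family genes 1 was higher and 0 lower: PMAIP1 (NM_021127), which encodes the pro-apoptotic NOXA, at 0.20, 0.37, 1.09 and 0.57 under mitotane against 0.17, -0.92, -0.56 and -0.22. Its groups did not overlap, and the log2 difference was 0.94 ± 0.26 (SE), or 0.09 with normexp.

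Genes of cell division lay slightly lower under mitotane. Of 40 tested mitosis genes 0 were higher and 4 lower at unadjusted p under 0.05. The median was -0.16, and 35 differences were below 0. Over all transcripts 2.38% were lower at that threshold and 44.1% of differences were below 0. KIF11 (NM_004523), a spindle motor, was at 0.11, -0.43, -0.55 and -0.23 under mitotane and at 0.04, 0.16, 0.36 and 0.29 under 9-cisRA, a log2 difference of -0.49 ± 0.15 (SE). MAD2L1 (NM_002358), of the spindle checkpoint, was at 0.05, -0.11, -0.34 and -0.05 against 0.12, 0.40, 0.51 and 0.09, a log2 difference of -0.39 ± 0.14 (SE). KIF11 overlapped through mitotane replicate 1, and MAD2L1 did not overlap. The checkpoint kinase BUB1B (NM_001211) differed by -0.43 ± 0.18 and the kinesin KIF20A (NM_005733) by -0.37 ± 0.16. The proliferation marker MKI67 (NM_002417) lay the other way, at 0.16 (-0.13 to 0.45), with its 3 probes between -0.07 and 0.45, and CCNB1 (NM_031966) was at -0.26 (-0.63 to 0.12). Mitotane replicate 3 had the lowest list mean, -0.26, and without it 1 was lower and the median was -0.12. The number lower was also 1 without 9-cisRA replicate 3 and 2 without 9-cisRA replicate 1 or 2, and ran from 1 to 6 over the alternatives. The list mean of mitotane replicate 1, 0.10, lay within the 9-cisRA range of 0.01 to 0.19. For DNA replication and S phase 2 of 42 were lower and 0 higher, with a median of -0.09.

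Nuclear-encoded subunits of the respiratory chain were close to this: 0 of 51 were higher and 3 lower at unadjusted p under 0.05, 45 differences were below 0, and the median was -0.10. Over all transcripts 2.38% were lower at that threshold and 44.1% of differences were below 0. The 3 lower subunits were SDHB (-0.29), NDUFV2 (-0.31) and ATP5C1 (-0.32). Without 9-cisRA replicate 2 none was left, 31 differences were below 0 and the median was -0.03. Members of 1 complex are made together in most cells, so the genes of a list are not independent of each other.

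The other lists gave at most 3 transcripts in a direction at unadjusted p under 0.05, where 6.19% of all transcripts were higher and 2.38% lower. HOX and MEIS genes, of which several answer to retinoic acid in embryos, had 3 higher (HOXB2 at 0.35, HOXD8 at 0.33 and PBX3 at 0.42) and 1 lower of 32. The hypoxia and glycolysis list had 2 higher (PFKL at 0.43 and EPAS1 at 0.44) and 2 lower (LOX, NM_002317, the lysyl oxidase that cross-links collagen, at -1.59, or -0.11 with normexp, and LDHA at -0.36) of 33. NRF2 and glutathione genes had 1 higher, GCLM (0.40), and 1 lower, AKR1B10 (-0.68), of 32. The interferon list had 1 of 40 in each direction (IFIT2 at 0.42 and TAP2 at -0.25), as did the beta-catenin targets with TCF7 (0.35) and FZD1 (-0.76) of 20. In the interferon list 9-cisRA replicate 4 was the highest of the 8 arrays for 25 of 40 genes. The median, -0.07, was 0.08 without that array, with 27 differences above 0 in place of 16, and -0.25 with array weights. Of 20 genes of store-operated calcium entry and calcium handling 0 were at unadjusted p under 0.05.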

How the data were processed

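The deposited series value table holds log2 values per probe for all 16 arrays. Its processing is not stated in the labels. Set against the 8 scanner files, differences between these arrays matched log2 of the processed signal (r = 1.00 after rounding over 34127 probes), with array offsets of at most 0.05 from a 75th-percentile scaling, and each probe is centred on its median over the 16 arrays. The scanner files, deposited by the authors, hold the intensity of each spot from Agilent Feature Extraction 11.0.1, per the submitters' processing notes (11.0.1.1, per the file headers).

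Probes of 1 identifier were averaged. Of 29094 identifiers 20126 were tested, those with a probe well above background on all 4 arrays of a group; 19299 were so on all 8. limma 3.58.1 (R 4.3.3) compared mitotane with 9-cisRA over the 8 arrays alone, with no control array, and Benjamini-Hochberg adjustment ran over all identifiers tested. Intervals are 95% and rest on limma's moderated error, and the number of arrays limits their precision. On simulated data for this comparison with 20126 transcripts, 74% of 2-fold and 97% of 4-fold changes were recovered. The simulated noise was drawn for each transcript on its own, from its residual spread. Deviations that many genes share on 1 array are not in it, so these shares need not hold for the real arrays.

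The same replicate number marks the same slide. Deviations of the 2 arrays of a slide correlated at -0.13, 0.35, 0.09 and 0.003, so the numbers were not taken to pair the samples.

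The comparison, its 22 gene lists and its 11 marker lists were chosen with earlier results of these data known, and 3 further lists, of heat shock proteins, matrix genes and SPRR genes, after the values were seen. Of 823 symbols 775 had an accession on the array and 677 were tested. The accession with the highest mean signal stood for a gene. Symbols of list members were written down before their values were looked at and those of leading transcripts and of the further lists afterwards; an accession with no sure symbol was passed over. The rule as written asked for names from a reference table, which was not at hand, and its fallback, 2 accessions in each direction, is also given. Named were up to 12 transcripts in each direction with the smallest p, no overlap between groups and signal well above background throughout the higher group, the leading member of each list in each direction, and a set list of retinoid, steroid, sterol and stress genes. Members beyond these were picked for their values. Some members that the rule names are not reported here.

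The alternatives were the scanner signal, normexp (offset 50, on the median spot signal, as the files hold no mean signal) with quantile normalisation, quantile normalisation or median centring of the deposited values, no filter or a stricter one, the brightest probe, slide as a block, array weights, a variance trend and leaving out each array. Python 3.11.15 and matplotlib 3.10.9 drew the figures.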

Additional observations from a re-analysis of the deposited data

Results flagged for a closer look

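Values of 31 genes and 4 array measures were examined within each group, 70 sets of 4 arrays, for an array whose gap to its nearest neighbour took up nearly the whole range of its group; chance marks about 1 set in 20. In 4 sets an array stood apart so. CYP11B2 in mitotane replicate 4 was at -0.94, against 0.81 to 1.07 on the other mitotane arrays, and STAR on the same array was at -0.47, against 0.24 to 0.34. PER3 in mitotane replicate 1 was at 0.64, against 0.45 to 0.47. FOSB in 9-cisRA replicate 2 was at -1.33, against -0.34 to -0.17.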

How the results depend on the processing

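The lowest adjusted p ran from 0.0128 to 0.926 over 18 alternatives, and only leaving out mitotane replicate 2 gave calls, so leaving out 1 array gave 0 to 4. Of the 106 genes followed through the alternatives 88 kept their direction in all of them, and so did all 24 leading transcripts, although many shrank with normexp. For the leading transcripts this was largely fixed beforehand. They were picked for groups that do not overlap, so leaving out 1 array cannot turn their direction. The unadjusted count, 1723, ran from 965 (without mitotane replicate 3) to 2516 (without 9-cisRA replicate 1), with 742 to 1865 higher and 223 to 723 lower under mitotane. The count without overlap, 899, ran from 851 to 1026 over the settings with all 8 arrays, with 456 to 737 higher and 209 to 431 lower. Leaving out 1 array gave 1125 to 2600, with 743 to 1768 higher and 382 to 832 lower; fewer arrays make it larger by construction. Slide as a replicate block gave 0 calls in limma, 1793 transcripts at unadjusted p under 0.05 and a lowest adjusted p of 0.115. The replicate numbers are not shown to pair the samples. Among arrays of the other group, only those of slide 2 correlated best with their own slide.

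Medians of the 22 lists moved beyond the spread between arrays in these cases, and the cause was not tested. With normexp the medians were 0.036 for retinoid receptors, 0.023 for retinoid metabolism, 0.0088 for drug metabolism, 0.037 for clock genes and 0.014 for calcium handling. Quantile normalisation gave 0.028 for retinoid metabolism and -0.0063 for ER stress, array weights 0.054 for retinoid metabolism, and the brightest probe 0.019 for drug metabolism and 0.022 for calcium handling. Leaving out 1 array gave -0.062 to 0.074 for RAR targets, -0.0027 to 0.18 for retinoid metabolism, -0.0060 to 0.0996 for drug metabolism, -0.018 to 0.114 for cholesterol storage, 0.0072 to 0.135 for SREBP genes, -0.0047 to 0.074 for the BCL2 family, 0.118 to 0.309 for clock genes, 0.016 to 0.084 for beta-catenin targets and 0.065 to 0.131 for calcium handling. Of the lists drawn up afterwards, the matrix median of -0.27 was -0.13 with normexp and -0.46 without 9-cisRA replicate 2, and the SPRR median of -0.33 was -0.059 with normexp and -0.0090 with the brightest probe. Dim signal limits what these arrays show: 8968 identifiers were not tested.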
